A study of Mus musculus with 8 samples.

Results

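The proteasome genes of immortalized mouse liver endothelial cells (LEC) were examined by RNA-seq with and without silencing of DHX15, an RNA helicase of the DEAH box family that takes part in pre-mRNA splicing. A gene was included if its symbol began with Psma, Psmb, Psmc, Psmd, Psme, Psmf or Psmg followed by a number and if at least 1 of its isoforms was annotated as protein coding. Psmb8 and Psmb9 were set apart. The rule used no measured value and gave 46 genes with 227 isoforms, of 49585 genes and 122968 isoforms in the table. The filter on low values, a mean of 10 normalized counts per library, was passed by 44 of the genes and 180 of the isoforms. In siL-DHX15-LEC (4 libraries), DHX15 was silenced with an shRNA delivered by a lentivirus whose expression is induced by doxycycline. The wild-type LEC (4 libraries) were labelled untreated. Whether they carried an empty or control vector or received doxycycline is not given in the sources used here. Both groups were C57BL/6 liver sinusoidal endothelial cells from the same SV40-immortalized line, so the libraries are from 1 line and not from separate animals. The study describes the 4 samples of each condition as biologically independent, without saying how they were kept apart, so p-values measure the spread between samples of this line.

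The proteasome degrades proteins tagged with ubiquitin. Its barrel-shaped core, called 20S, is built of rings of alpha subunits, which gate the entrance, around rings of beta subunits, of which only some cut peptide bonds. The regulatory particle, called 19S, sits on the core. Its base holds a ring of ATPases that unfold the substrate, and its lid removes ubiquitin. Assembly chaperones build each part and are then released or degraded, and the transcription factor Nfe2l1 is known to raise the transcription of proteasome genes in mammalian cells when proteasome activity is limiting. Endothelial cells need the proteasome, as all cells do, for the turnover of short-lived signaling proteins.

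The libraries held 77335734 to 149258495 recovered reads in siL-DHX15-LEC and 118830467 to 152045693 in wild-type LEC. Dhx15 itself had 8936, 7956, 8929.9 and 10051 normalized counts in the siL-DHX15-LEC libraries, against 26824, 27952, 26430.4 and 28006 in the wild-type LEC libraries, a log2 fold change of -1.61 ± 0.059 (SE). Of 12 endothelial marker genes, 5 reached the mean of 10, and the summed level of the 12 was 7787 to 8118 normalized counts in siL-DHX15-LEC and 7928 to 8756 in wild-type LEC, most of it from Pdpn. Cdh5, Tek, Tie1, Stab2, Lyve1 and Prox1 stayed under that mean, and Emcn was at 0 in all 8 libraries. All 13 hepatocyte markers were lower in siL-DHX15-LEC, with a summed level of 69.1 to 97.4 normalized counts, against 1228 to 1419 in wild-type LEC. Of 8 leukocyte markers 2 reached the mean of 10 (Csf1r and Cd68). Of the endothelial and leukocyte markers tested, Pecam1 rose, with 37.0 ± 2.54 normalized counts in siL-DHX15-LEC and 25.2 ± 5.77 in wild-type LEC (SD, n = 4 each, adjusted p = 0.041, limma), and Csf1r fell, with 153 ± 7.10 in siL-DHX15-LEC and 221 ± 23.6 in wild-type LEC (SD, n = 4 each, adjusted p = 0.0021, limma). The summed level of the 8 leukocyte markers was 496 to 514 in siL-DHX15-LEC and 528 to 623 in wild-type LEC, and Cd3e was at 0. Normalized totals were 129090684 to 131309871 in siL-DHX15-LEC and 120698234 to 126931148 in wild-type LEC. The siL-DHX15-LEC libraries were run on lanes 5 and 2 and the wild-type LEC libraries on lanes 4 and 1, which means that effects of lane and of silencing cannot be told apart here. The part that markers, totals or lanes have in the results on proteasome genes was not tested.

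Isoform sequences are given first for Psmg4 and Psmd11, whose isoforms were called as changed in proportion with limma but not with edgeR. Psmd12, which lay just outside the threshold of the limma test, is included. The sequences are shown because the differences between these isoforms are small and local. For Psmg4, a chaperone of alpha ring assembly, isoform Psmg4-001 holds a middle exon that Psmg4-002 skips (chr13:34166061-34166136, GRCm38, plus strand, 76 bases, all coding). The exon is in capitals and the 24 transcript bases of each neighbouring exon are in lower case.
Psmg4-001: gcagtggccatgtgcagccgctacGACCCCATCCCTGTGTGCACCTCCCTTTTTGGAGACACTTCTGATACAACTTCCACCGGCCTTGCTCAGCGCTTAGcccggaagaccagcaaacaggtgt
Psmg4-002: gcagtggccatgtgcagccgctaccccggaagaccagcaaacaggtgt
The length of 76 bases is not a multiple of 3, and the annotated coding sequence had 123 codons in Psmg4-001 and 82 in Psmg4-002. For Psmd11, a lid subunit, Psmd11-004 and Psmd11-001 share a coding sequence of 422 codons and part at the base after the stop codon, which is in capitals (chr11:80471592-80471594, GRCm38, plus strand).
Psmd11-004: gccaagaagctgacaTAGgtgagtgctggc
Psmd11-001: gccaagaagctgacaTAGagttggatctgt
In Psmd11-001 the stop codon closes exon 13 and the 3′ UTR lies in exon 14. Psmd11-004 reads on through the intron of 115 bases (80471595 to 80471709) and ends inside exon 14, with 315 bases after the stop codon instead of 1539. Psmd12, another lid subunit, has an exon in Psmd12-001 that Psmd12-002 lacks (chr11:107485550-107485609, GRCm38, plus strand, 60 bases, all coding and a multiple of 3), which is shown in capitals.
Psmd12-001: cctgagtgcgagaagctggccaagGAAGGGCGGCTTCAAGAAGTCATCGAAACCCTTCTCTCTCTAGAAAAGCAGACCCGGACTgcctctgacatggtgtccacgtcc
Psmd12-002: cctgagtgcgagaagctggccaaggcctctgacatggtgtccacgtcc

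The first comparison asked whether the levels of proteasome genes differed between siL-DHX15-LEC and wild-type LEC. Of 44 genes tested, 12 rose (27.3%) and 2 fell (4.55%) in siL-DHX15-LEC, and 30 did not pass the test (limma, Benjamini-Hochberg adjusted p below 0.05 over all genes). Over all 16497 genes tested, 18.4% rose and 14.8% fell. Among the 9339 genes whose mean was 1000 normalized counts or more, a level that all 44 proteasome genes reached, 26.4% rose and 14.0% fell. The share of proteasome genes that rose was near that of abundant genes as a whole. The changes were small. The median log2 fold change was 0.068 for proteasome genes and -0.0094 for all genes, and the median of its absolute size was 0.077 for proteasome genes, 0.15 for all genes and 0.11 for the abundant genes. For 41 of the 44 genes the 95% interval lay within a 1.25-fold change either way. The exceptions were Psmg4, Psmc6 and Psme4.

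The balance of rises and falls depended on how libraries were scaled. When all libraries were set to equal totals in place of the size factors of the authors, 5 proteasome genes rose and 4 fell, and over all genes 1861 rose and 3897 fell, against 3039 and 2439 with the size factors. The median log2 fold change of the proteasome genes was then 0.0011, with 22 genes above 0 and 22 below, and that of all genes was -0.076. No gene that passed the test changed sign. The 14 that were above 0 with size factors and below 0 with equal totals were Psma1 to Psma5, Psmb4, Psmc3, Psmc5, Psmd1, Psmd5, Psmd7, Psmd10, Psmd14 and Psmg3, and none of them passed the test under either scaling. Without a trend of the variance Psmb1, Psmb7, Psmc1, Psmd4, Psmd11, Psmg1 and Psme4 did not pass (adjusted p = 0.050 to 0.083). The sum of the 46 genes took 0.657% ± 0.0106 of the normalized counts in siL-DHX15-LEC and 0.660% ± 0.0133 in wild-type LEC (SD, n = 4 each). These shares ranged from 0.649% to 0.672% in siL-DHX15-LEC and from 0.648% to 0.676% in wild-type LEC and overlapped. Single libraries, numbered here as replicates in the order of the deposited values, also moved the counts. The number that rose was 7 without siL-DHX15-LEC replicate 1 or 3, and 6 without siL-DHX15-LEC replicate 2 or wild-type LEC replicate 3. A single gene fell without siL-DHX15-LEC replicate 1 or 2 or wild-type LEC replicate 4. Psmb2, Psmc2, Psmf1, Psmg2 and Psmg4 were higher past the threshold with every library left out and in all 11 other settings. The plot of log2 fold changes by role shows the order of the genes, and the plot of both scalings shows which calls were shared.

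**Figure D1:**
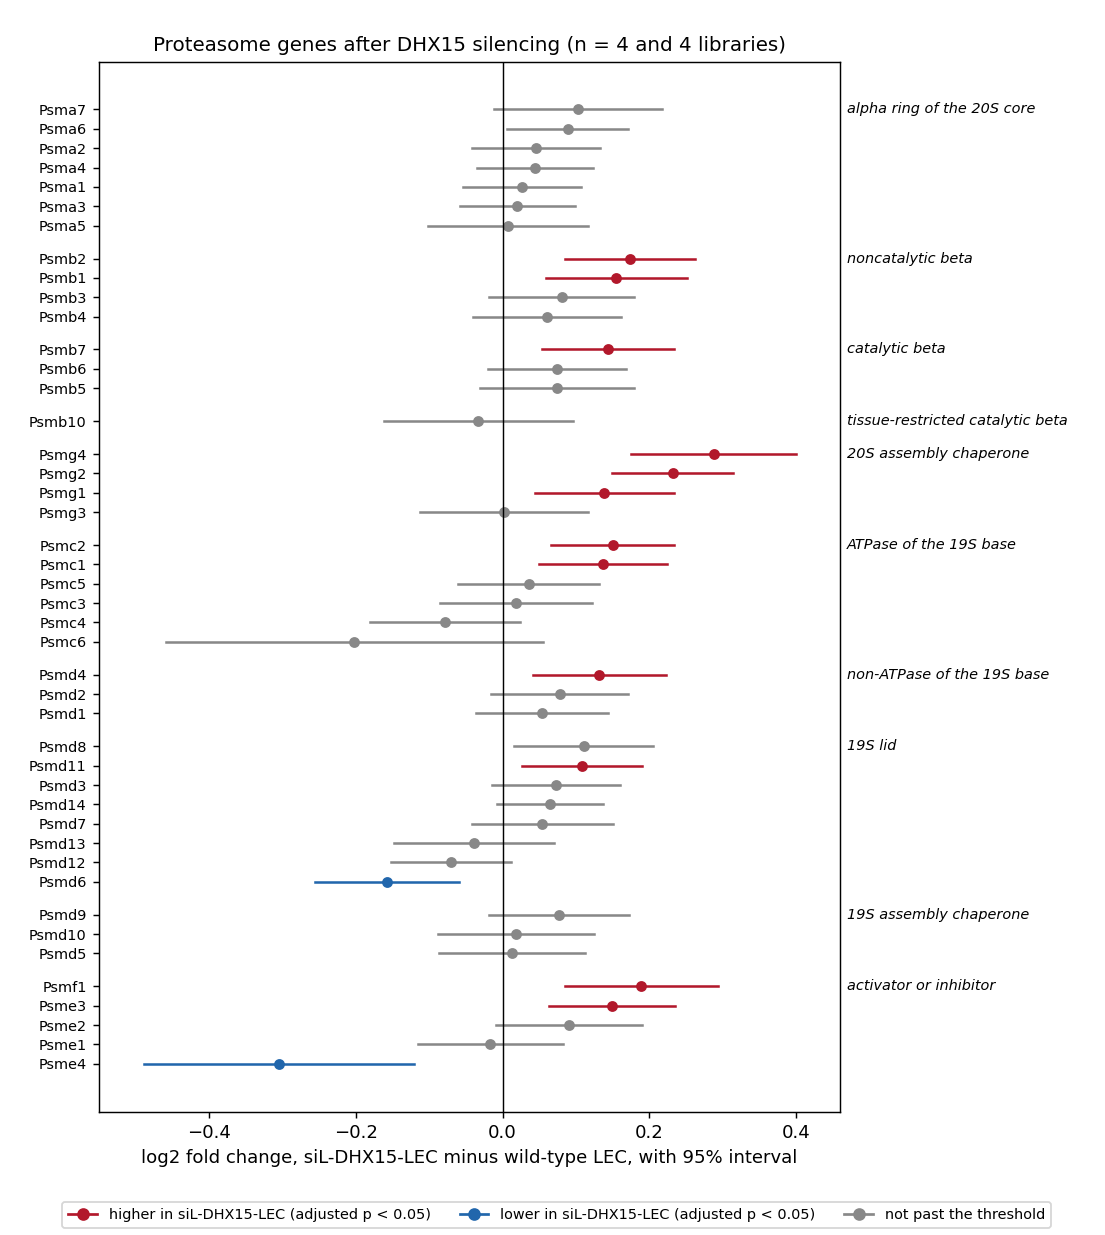
Log2 fold change (siL-DHX15-LEC minus wild-type LEC, x axis) of the 44 tested proteasome genes (y axis), grouped by role, with points for the estimates and lines for 95% intervals (n = 4 libraries each). Red marks the 12 genes that rose, blue the 2 that fell and grey the 30 that did not pass. The 20S assembly chaperone Psmg4 lies furthest to the right at 0.29 and the activator Psme4 furthest to the left at -0.31. With equal totals every point moves to the left and 5 genes rise and 4 fall.

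**Figure D2:**
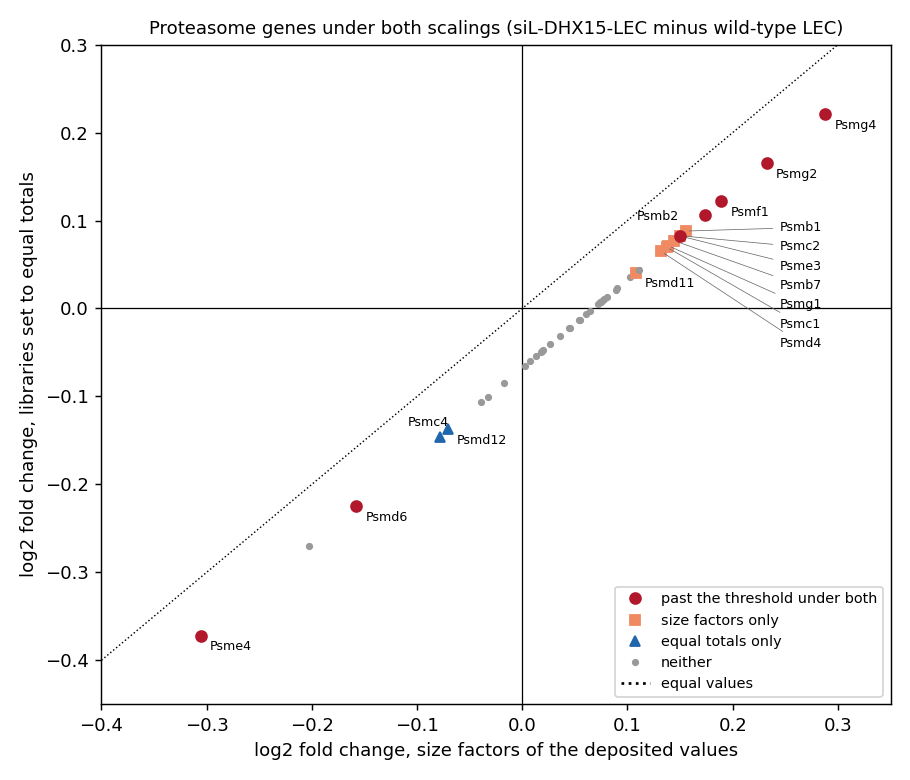
Log2 fold change of each of the 44 proteasome genes with the size factors of the authors (x axis) and with libraries set to equal totals (y axis). The points run parallel to and below the dotted line of equal values. Psmg4, Psmg2, Psmf1, Psmb2, Psmc2, Psmd6 and Psme4 (red) passed the threshold under both scalings, 7 genes (orange) only with size factors, and Psmc4 and Psmd12 (blue triangles) only with equal totals.

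The largest rises were among the 4 Psmg chaperones of 20S assembly. Of these, 3 rose and 1 did not pass the test, while 26.4% of the abundant genes rose. Pomp, an assembly factor of the core without a Psm symbol, is in the list of surrounding genes. It did not pass (log2 fold change -0.084, adjusted p = 0.13, limma), and with equal totals it was lower (-0.15, adjusted p = 0.011). Psmg4, which pairs with Psmg3, had 1851, 1851, 1737 and 1739 normalized counts in the siL-DHX15-LEC libraries, against 1565, 1392, 1428 and 1496 in the wild-type LEC libraries. Every siL-DHX15-LEC library lay above every wild-type LEC library. The log2 fold change was 0.29 ± 0.052 (SE), a 1.22-fold higher level (adjusted p = 0.0016, limma), and it was 0.22 with equal totals (adjusted p = 0.0038). Psmg2, which pairs with Psmg1, averaged 3932 ± 105 in siL-DHX15-LEC and 3346 ± 57.4 in wild-type LEC (SD, n = 4 each), a log2 fold change of 0.23 ± 0.038 (SE) with an adjusted p of 9.0e-04 (limma). Psmg1 averaged 5043 ± 228 in siL-DHX15-LEC and 4579 ± 148 in wild-type LEC (SD, n = 4 each), and its log2 fold change of 0.14 passed the test (adjusted p = 0.029, limma) but not with equal totals (adjusted p = 0.15) or without siL-DHX15-LEC replicate 1, 2 or 3 or wild-type LEC replicate 2, 3 or 4. Psmg3 averaged 3208 ± 116 in siL-DHX15-LEC and 3206 ± 213 in wild-type LEC (SD, n = 4 each), a log2 fold change of 0.0022 with a 95% interval of -0.11 to 0.12. Thus the Psmg3 and Psmg4 transcripts, whose products act as a pair, had different estimates, and the difference between them was not tested. Summed over the 4 Psmg chaperones, the level was 13977 ± 467 in siL-DHX15-LEC and 12603 ± 436 in wild-type LEC (SD, n = 4 each).

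The alpha ring did not pass the test in any of its 7 measured genes. Their log2 fold changes ran from 0.0078 for Psma5 to 0.10 for Psma7, with a median of 0.045. The 95% intervals reached no higher than 0.22 (Psma7) and no lower than -0.10 (Psma5). Unadjusted, Psma6 was the only one of the 7 with a p below 0.05 (0.037, adjusted 0.092, limma), and without siL-DHX15-LEC replicate 4 it passed (0.11, adjusted p = 0.046). DESeq2 and edgeR on the recovered reads called 0 and 0 of the 7. Psma8, the form of an alpha subunit found in male germ cells, had 0 reads in all 8 libraries, which allows up to 3 reads per library, a limit set by depth.

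Of the 7 widely expressed beta subunits, 3 rose (Psmb2, Psmb1 and Psmb7) and 4 did not pass. Psmb2, which has no catalytic site, had 17382, 18368, 18239 and 17163 normalized counts in the siL-DHX15-LEC libraries, against 16207, 14805, 15819 and 16262 in the wild-type LEC libraries. The groups did not overlap, as for 9 of the 44 proteasome genes (20.5%) and for 30.8% of all genes tested. Its log2 fold change was 0.17 ± 0.041 (SE) (adjusted p = 0.0072, limma) and it stayed past the threshold with equal totals (0.11, adjusted p = 0.028). Psmb1 had a log2 fold change of 0.16 ± 0.044 (SE) and an adjusted p of 0.018 (limma), which was lost with equal totals (adjusted p = 0.073) and without siL-DHX15-LEC replicate 2 or 3 or wild-type LEC replicate 3, and Psmb3 and Psmb4 had 0.080 and 0.061 and did not pass.

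The catalytic subunits divide the work by the residue after which they cut. Psmb7, with trypsin-like activity, had 31313, 32077, 31012 and 30182 normalized counts in the siL-DHX15-LEC libraries, against 29635, 26573, 27437 and 29160.2 in the wild-type LEC libraries. The libraries of the conditions did not overlap, and the log2 fold change was 0.14 ± 0.041 (SE) (adjusted p = 0.019, limma). It fell outside the threshold with equal totals (0.077, adjusted p = 0.079) and without siL-DHX15-LEC replicate 1 or 2 or wild-type LEC replicate 3, with adjusted p-values of 0.052 to 0.062. Psmb5, with chymotrypsin-like activity and the main target of proteasome inhibitors, had 21306, 22653, 21518 and 19646 in siL-DHX15-LEC, against 20908, 18903, 20308 and 20694 in wild-type LEC, and the conditions overlapped. Its log2 fold change was 0.074 with a 95% interval of -0.031 to 0.18. Psmb6, with caspase-like activity, had 29352, 29851, 29612 and 27729.7 in siL-DHX15-LEC, against 28982, 25814, 27359 and 28593 in wild-type LEC, again with overlap, and a log2 fold change of 0.074 (95% interval -0.020 to 0.17). Psmb5 and Psmb6 therefore did not pass the test (adjusted p = 0.26 and 0.20, limma), with intervals that leave room for a rise like that of Psmb7.

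Some catalytic subunits are restricted to certain tissues. Psmb10, which replaces Psmb7 in the immunoproteasome of cells exposed to interferon gamma, averaged 1698 ± 123 in siL-DHX15-LEC and 1735 ± 77.6 in wild-type LEC (SD, n = 4 each), a log2 fold change of -0.033 (95% interval -0.16 to 0.096) that did not pass. Psmb11, known from the cortical epithelium of the thymus, had 8.49, 1.77, 1.76 and 3.78 normalized counts in siL-DHX15-LEC, against 1.03, 1.59, 5.22 and 3.46 in wild-type LEC, from 13 and 12 reads in all, and was under the mean of 10. The remaining genes of the immunoproteasome and its peptide transporter, Psmb8, Psmb9, Tap1 and Tap2, did not pass the test either, and their summed level was 1055 to 1189 normalized counts in siL-DHX15-LEC and 1047 to 1075 in wild-type LEC.

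Of the 6 ATPases of the 19S base, Psmc2 and Psmc1 rose and 4 did not pass. Psmc2 had 25353, 24835, 24704 and 23799 normalized counts in the siL-DHX15-LEC libraries, against 23419, 21338, 21763 and 22459.8 in the wild-type LEC libraries. All siL-DHX15-LEC libraries were above all wild-type LEC libraries, with a log2 fold change of 0.15 ± 0.038 (SE) and an adjusted p of 0.011 (limma). Psmc1 had a log2 fold change of 0.14 ± 0.040 (SE) and an adjusted p of 0.021 (limma), which missed the threshold with equal totals (adjusted p = 0.11) and without siL-DHX15-LEC replicate 1, 2 or 3 or wild-type LEC replicate 2 or 3. Psmc4 averaged 16323 ± 405 in siL-DHX15-LEC and 17261 ± 1135 in wild-type LEC (SD, n = 4 each) (log2 fold change -0.079, adjusted p = 0.22, limma), and it passed with equal totals (-0.15, adjusted p = 0.012) and without wild-type LEC replicate 2 (-0.12, adjusted p = 0.041). Psmc6 varied most among the subunits. It had 11885, 11001, 13129 and 16801 in siL-DHX15-LEC, against 12534, 16529, 15514 and 15729.9 in wild-type LEC, so that siL-DHX15-LEC replicate 4 lay above all wild-type LEC libraries and the other 3 siL-DHX15-LEC libraries lay below wild-type LEC replicates 2, 3 and 4. Its log2 fold change was -0.20 ± 0.12 (SE) with a 95% interval of -0.46 to 0.055, and it did not pass. Without siL-DHX15-LEC replicate 4 it passed, at -0.32 (adjusted p = 0.012).

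The non-ATPase subunits of the base include Psmd1 and Psmd2, which serve as scaffolds, and Psmd4, which binds ubiquitin chains. Psmd4 had 28294, 29344, 28603 and 26879 normalized counts in the siL-DHX15-LEC libraries, against 27168, 24476, 25455 and 26148 in the wild-type LEC libraries. The groups overlapped in 1 library each, siL-DHX15-LEC replicate 4 and wild-type LEC replicate 1. Its log2 fold change of 0.13 ± 0.041 (SE) passed the test (adjusted p = 0.029, limma), but not with equal totals (0.065, adjusted p = 0.14), with the most abundant isoform in place of the sum (0.11, adjusted p = 0.074) or without siL-DHX15-LEC replicate 1, 2 or 3 or wild-type LEC replicate 2, 3 or 4 (adjusted p = 0.057 to 0.081). Psmd2, at 84378 ± 2909.5 normalized counts in siL-DHX15-LEC and 79966 ± 3890.2 in wild-type LEC, and Psmd1 did not pass (log2 fold changes 0.078 and 0.054).

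Of the 8 lid subunits, Psmd11 rose, Psmd6 fell and 6 did not pass. Psmd6 is a structural subunit of the lid. It had 9773, 9813, 10332 and 10753 normalized counts in the siL-DHX15-LEC libraries, against 11684, 10918, 10883 and 11886 in the wild-type LEC libraries. The groups did not overlap, and the log2 fold change was -0.16 ± 0.045 (SE) (adjusted p = 0.019, limma). The fall was larger with equal totals (-0.22, adjusted p = 0.0025), and it missed the threshold without siL-DHX15-LEC replicate 1 or 2 or wild-type LEC replicate 4 (adjusted p = 0.050 to 0.066). Psmd11, which links the lid to the core, had 26365, 26811, 25619.7 and 25965 normalized counts in the siL-DHX15-LEC libraries, against 25707, 23294, 23914 and 24346 in the wild-type LEC libraries. The groups overlapped only through wild-type LEC replicate 1. Its log2 fold change was 0.11 ± 0.037 (SE) (adjusted p = 0.044, limma). The call was the least firm of all: it was lost with equal totals (0.041, adjusted p = 0.30), with edgeR (adjusted p = 0.051), with no filter (adjusted p = 0.077), without a trend of the variance (adjusted p = 0.083), with the most abundant isoform in place of the sum (0.029, adjusted p = 0.61), and without siL-DHX15-LEC replicate 1, 2 or 3 or wild-type LEC replicate 2, 3 or 4 (adjusted p = 0.071 to 0.11). Psmd14, the deubiquitinase of the lid, had a log2 fold change of 0.064 (95% interval -0.0078 to 0.14) and did not pass, and Psmd12 had -0.070, which passed with equal totals (-0.14, adjusted p = 0.0063) and with the most abundant isoform in place of the sum (-0.12, adjusted p = 0.040). The chaperones that build the base, Psmd5, Psmd9 and Psmd10, did not pass, with log2 fold changes of 0.013, 0.077 and 0.018.

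Of the 5 genes for proteins that bind the ends of the core, 2 rose and 1 fell. Psmf1, known as an inhibitor of the core in vitro, had 7997, 8405, 7992 and 7524 normalized counts in the siL-DHX15-LEC libraries, against 7359, 6481, 7121 and 7041 in the wild-type LEC libraries. The groups did not overlap, and the log2 fold change was 0.19 ± 0.048 (SE) (adjusted p = 0.010, limma), with 0.12 under equal totals (adjusted p = 0.037). Psme3, the activator found in the nucleus, averaged 27002 ± 533 in siL-DHX15-LEC and 24357 ± 1189.6 in wild-type LEC (SD, n = 4 each) and rose by 0.15 ± 0.039 (SE) on the log2 scale (adjusted p = 0.013, limma), though with equal totals it did not pass (adjusted p = 0.064). Psme4, another nuclear activator, had 14469.7, 12316, 14739 and 16714 normalized counts in the siL-DHX15-LEC libraries, against 16063, 19871, 18239.5 and 17578 in the wild-type LEC libraries. It had the largest fall, a log2 fold change of -0.31 ± 0.084 (SE) and an adjusted p of 0.016 (limma), or 0.809 times the wild-type LEC level. The groups overlapped through siL-DHX15-LEC replicate 4 and wild-type LEC replicate 1, the same libraries that stood apart for Psmc6. The fall remained past the threshold with each library left out (-0.37 to -0.23) and with equal totals (-0.37), but not when the trend of the variance was left out (adjusted p = 0.059). Psme1 and Psme2, whose products form the activator induced by interferon gamma, did not pass (log2 fold changes -0.017 and 0.090), though Psme2 passed without siL-DHX15-LEC replicate 4 (0.12, adjusted p = 0.038).

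**Figure D3:**
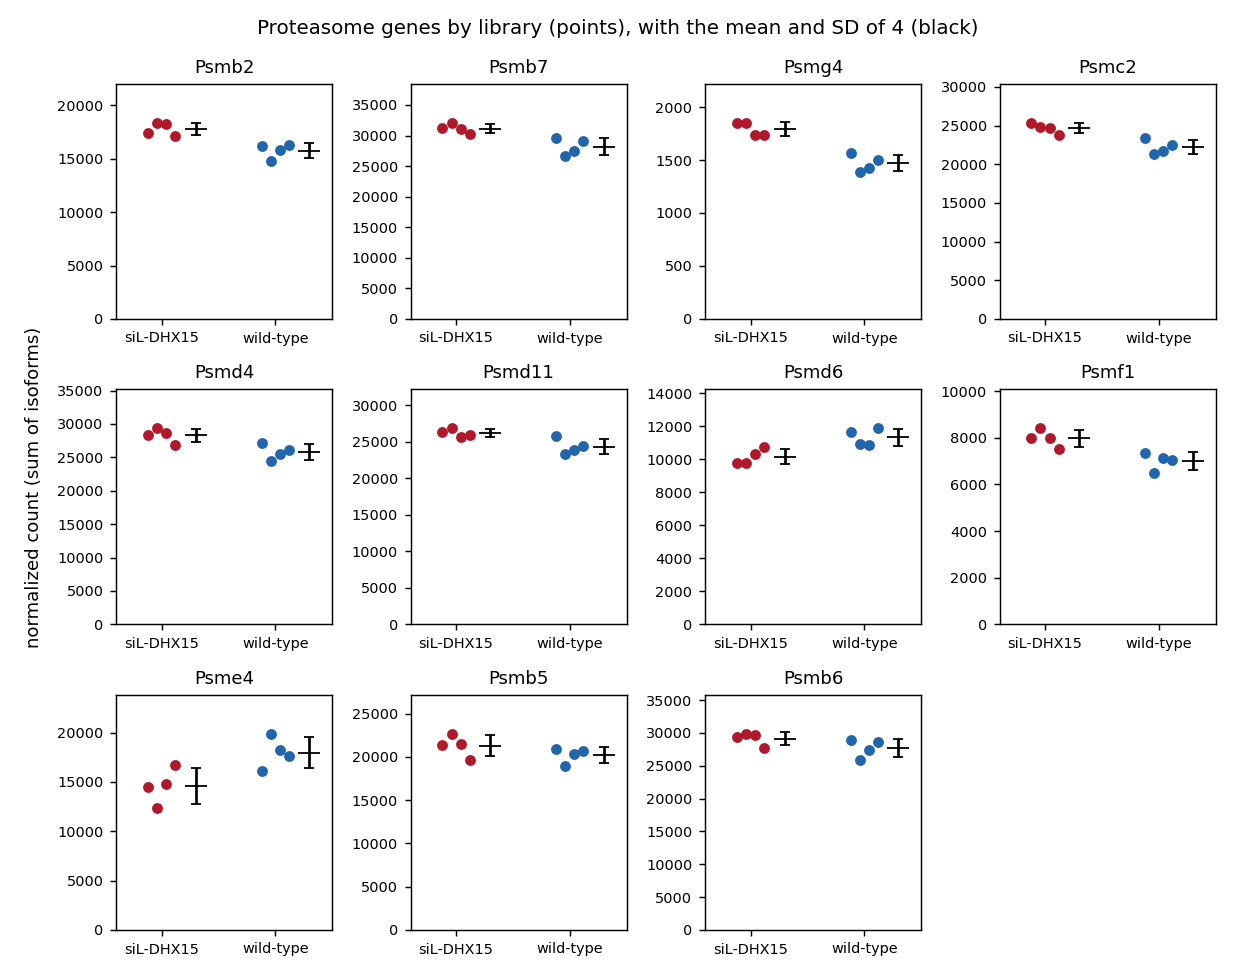
Normalized count (y axis, from 0) of 11 proteasome genes in each library, with siL-DHX15-LEC in red on the left and wild-type LEC in blue on the right, and the mean and SD of 4 libraries in black. The rises of Psmg4, Psmf1, Psmb2, Psmb7 and Psmc2 and the fall of Psmd6 separate the conditions, while Psme4, Psmd4 and Psmd11 overlap in 1 or 2 libraries and Psmb5 and Psmb6 overlap widely. With equal totals Psmb7, Psmd4 and Psmd11 do not pass the test.

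Levels of different genes were compared per kb of isoform length. The 14 widely expressed core subunits spanned a 5.39-fold range in the mean over 8 libraries, from 6684 normalized counts per kb for Psma2 to 36003 for Psmb6. The low value of Psma2 rests on a single listed isoform of 2911 bases. Among the catalytic subunits the order was Psmb6 with 36911 ± 1213 in siL-DHX15-LEC and 35094 ± 1800.1 in wild-type LEC, then Psmb7 with 26791 ± 682 in siL-DHX15-LEC and 24247 ± 1240.4 in wild-type LEC, then Psmb5 with 23672 ± 1379 in siL-DHX15-LEC and 22473 ± 1003 in wild-type LEC normalized counts per kb (SD, n = 4 each). Psmb6 was above the other pair by more than the spread of the libraries. Psmb7 and Psmb5 were within 2 SD of each other in wild-type LEC but not in siL-DHX15-LEC. The 17 subunits of the regulatory particle ran from 6330 (Psmc6) to 27973 (Psmd2) normalized counts per kb, with a median of 13133, against a median of 21040 for the core subunits. Like that of Psma2, the value of Psmc6 rests on a single listed isoform, here of 2234 bases. All 7 assembly chaperones with a Psm symbol were below each of these core and regulatory subunits, between 1662 (Psmd10) and 4598 (Psmg1) normalized counts per kb. The transcripts of a complex with fixed proportions were thus not at equal levels, and the order of the genes differed little between the conditions in the plot of levels per kb.

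**Figure D4:**
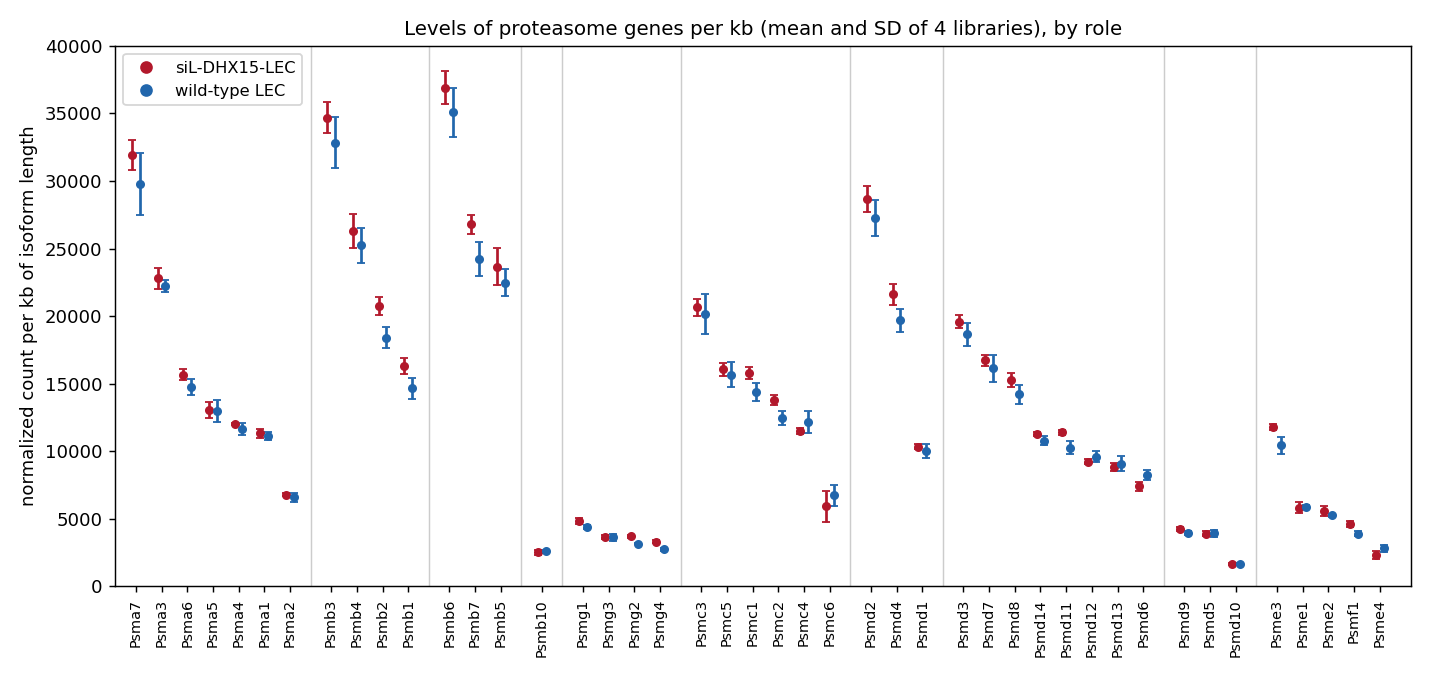
Normalized count per kb of isoform length (y axis, from 0) for the 44 proteasome genes above the filter (x axis), grouped by role from the alpha ring on the left to activators and inhibitors on the right, with the mean and SD of 4 libraries, siL-DHX15-LEC in red to the left of wild-type LEC in blue. Psmb6, Psmb3 and Psma7 are the highest, and the assembly chaperones stay below 5000.

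The next comparison was between isoforms. Of 180 isoforms of proteasome genes tested, 10 rose (5.56%) and 1 fell (0.556%), from 10 genes, while over all 50198 isoforms tested 6.61% rose and 3.83% fell. A change was thus called no more often among isoforms of proteasome genes than among all isoforms. In 30 of the 46 genes a single isoform held at least 90% of the gene. Psmg2-201, Psmb2-001, Psmc2-001 and Psme3-001, which hold 94.8% to 100% of their genes, rose with them. None of these main isoforms passed without a trend of the variance (adjusted p = 0.055 to 0.22). With equal totals Psmb2-001, Psmc2-001 and Psme3-001 were lost (adjusted p = 0.070 to 0.16). These were also lost without siL-DHX15-LEC replicate 1, 2 or 3 or wild-type LEC replicate 2, 3 or 4, and Psme3-001 without siL-DHX15-LEC replicate 4 as well. Without a filter Psmc2-001 and Psme3-001 did not pass (adjusted p = 0.056 and 0.084). The number of isoforms called was sensitive to the method: 5 rose and 0 fell without a trend of the variance, 6 rose and 6 fell with equal totals, and 16 rose and 5 fell with DESeq2. Without siL-DHX15-LEC replicate 1, 2 or 3 or wild-type LEC replicate 3, 6 rose and 0 fell, and without siL-DHX15-LEC replicate 4, 4 fell.

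Minor isoforms gave the largest fold changes. They were named after their values were seen. Psma4-002, which holds an additional exon of 85 bases in the 5′ UTR (chr9:54951344-54951428, GRCm38, plus strand) and whose annotation stops before the end of the coding sequence, had 448, 341, 406 and 333 normalized counts in the siL-DHX15-LEC libraries, against 198, 136, 196 and 158 in the wild-type LEC libraries. Its log2 fold change was 1.15 ± 0.16 (SE) (adjusted p = 0.0035, limma), and it made up 2.78% ± 0.406 of Psma4 in siL-DHX15-LEC and 1.29% ± 0.232 in wild-type LEC (SD, n = 4 each), while the Psma4 gene did not pass. Psmd8-201 and Psmb2-003, each under 1% of their gene, rose by 1.44 ± 0.38 and 0.99 ± 0.19 on the log2 scale (SE, with adjusted p = 0.047 and 0.014, limma). Psma3-001, an isoform with 1952 annotated bases after the stop codon, was the 1 that fell, with 681, 791, 821 and 911 normalized counts in the siL-DHX15-LEC libraries, against 1100.3, 926, 1036 and 1133 in the wild-type LEC libraries and a log2 fold change of -0.39 ± 0.10 (SE) and an adjusted p of 0.044 (limma). Its groups did not overlap. The calls of Psma3-001 and Psmd8-201 were lost without a filter, without a trend and without any 1 of 6 libraries each, and that of Psmd8-201 also with equal totals and with edgeR, whereas those of Psma4-002 and Psmb2-003 were made in every setting run at the threshold of 0.05.

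Whether the isoforms of a gene changed by different amounts was tested for the 15 proteasome genes with at least 2 isoforms that each held 5% of the gene. Usage changed in 2 of them, Psmd11 and Psmg4 (13.3%), and in 1099 of 6676 genes over the whole table (16.5%). For Psmd11 (adjusted p = 0.0059, diffSplice of limma with a Simes test) the read-through isoform Psmd11-004 made up 27.0, 26.8, 28.5 and 27.4% of the gene in siL-DHX15-LEC, against 23.4, 23.6, 23.1 and 23.7% in wild-type LEC. The shares did not overlap. The mean share was 27.4% ± 0.746 in siL-DHX15-LEC and 23.4% ± 0.247 in wild-type LEC (SD, n = 4 each), a difference of 3.97 percentage points. The exact two-sided permutation p was 0.029, the smallest that 4 against 4 libraries can give. Shares were tested for isoforms already picked by the usage test or by their values in these same libraries. Such a p is therefore not separate support for the usage calls. The spliced form Psmd11-001 made up 70.8% ± 0.881 in siL-DHX15-LEC and 74.8% ± 0.298 in wild-type LEC. In level, Psmd11-004 rose with a log2 fold change of 0.33 ± 0.038 (SE) and an adjusted p of 0.0020 (limma). Psmd11-001 had 0.029 ± 0.038 (SE) and did not pass.

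For Psmg4 (adjusted p = 0.0072, diffSplice of limma with a Simes test) the isoform that keeps the middle exon, Psmg4-001, made up 85.8, 87.1, 86.6 and 84.1% of the gene in siL-DHX15-LEC, against 82.0, 81.3, 82.7 and 81.9% in wild-type LEC. The means were 85.9% ± 1.29 in siL-DHX15-LEC and 82.0% ± 0.545 in wild-type LEC (SD, n = 4 each), which is 3.91 percentage points apart (exact two-sided permutation p = 0.029, again after selection by the usage test). Psmg4-002, which skips the exon, made up the rest. Psmg4-001 rose in level with a log2 fold change of 0.35 ± 0.060 (SE) and an adjusted p of 0.0083 (limma), and Psmg4-002 had -0.068 ± 0.093 (SE) and did not pass. The rise of the Psmg4 gene was thus in the isoform with the longer coding sequence. Psmd11 and Psmg4 were both called with each library left out (adjusted p = 0.0045 to 0.034). However, diffSpliceDGE of edgeR on recovered reads called 0 of the proteasome genes and 308 genes of the whole table. It gave an adjusted p of 0.17 for Psmd11 and 0.999965 for Psmg4, so both usage calls were made with limma only. Counted over all proteasome genes tested with it, 2 had an unadjusted p below 0.05.

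Psmd12 lay just outside the threshold (adjusted p = 0.050, diffSplice of limma with a Simes test) and is described because of that. Psmd12-002, which lacks the exon of 60 bases, made up 22.5, 19.5, 20.9 and 20.2% of the gene in siL-DHX15-LEC, against 18.4, 18.1, 18.2 and 17.5% in wild-type LEC. The shares did not overlap (exact two-sided permutation p = 0.029, again after selection on the same libraries). Psmf1-006 made up 67.2% ± 0.981 of its gene in siL-DHX15-LEC and 63.1% ± 1.66 in wild-type LEC, without overlap, but usage of Psmf1 did not pass (adjusted p = 0.14, diffSplice of limma). Psmf1-006 has its own first exon (chr2:151744003-151744186, GRCm38, minus strand, 184 bases, 5′ UTR) and 369 bases after the stop codon, against 2822 in Psmf1-001, with the same 271 codons. RSEM divides reads between isoforms that share most of their sequence, so shares depend on the annotated ends.

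**Figure D5:**
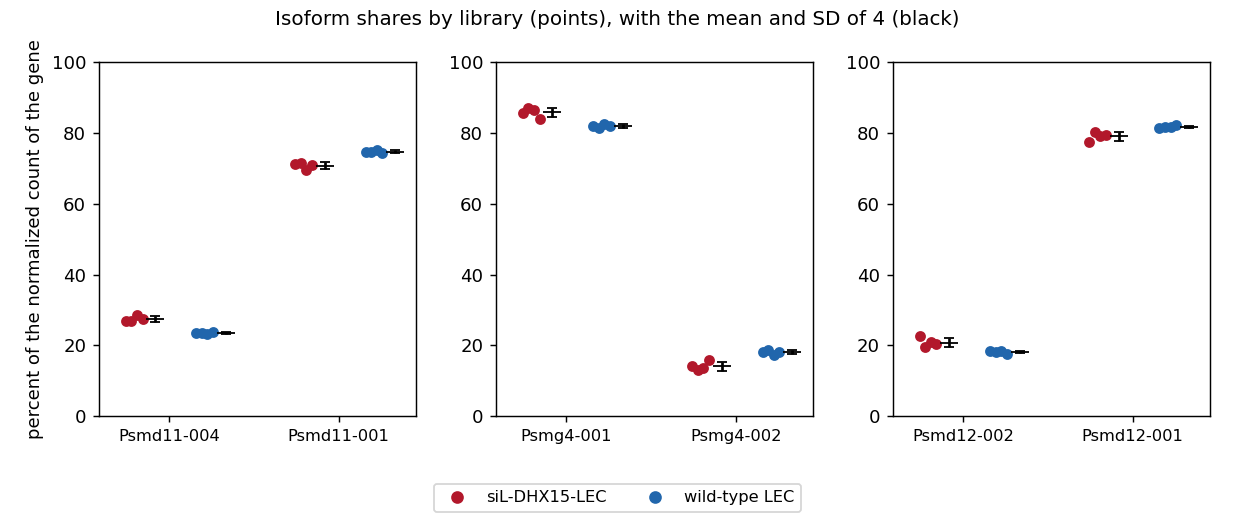
Percent of the normalized count of the gene (y axis, 0 to 100) taken by isoforms of Psmd11, Psmg4 and Psmd12 in each library, with siL-DHX15-LEC in red to the left of wild-type LEC in blue and the mean and SD of 4 libraries in black. The red and blue points are separate for each isoform and differ by 2.68 to 3.97 percentage points.

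Isoforms of proteasome genes were also grouped by annotated type. Of 79 protein-coding isoforms, 24 (30.4%) had a negative log2 fold change, with a median of 0.073, and 48.9% of all protein-coding isoforms tested, at any level, did. Signs depend on the scaling, since equal totals shifted the median of all genes by -0.067, close to the size of that median. The signs by type are given for the size factors only. Of 67 retained-intron isoforms, 48 (71.6%) had a negative log2 fold change, with a median of -0.14, against 61.5% and a median of -0.10 over all 10398 retained-intron isoforms tested, and 0 of the 67 passed the test (limma), with 6 at an unadjusted p below 0.05. DESeq2 and edgeR on recovered reads called 1 and 0 of them. Of these 67, 45 had a mean under 100 normalized counts. Retained-intron isoforms together made up 2.36% ± 0.0285 of the counts of proteasome genes in siL-DHX15-LEC and 2.49% ± 0.0538 in wild-type LEC (SD, n = 4 each). A negative log2 fold change was found for 7 of 11 isoforms annotated for nonsense-mediated decay (63.6%, against 43.1% of all 3238 tested). Their median was -0.031, against 0.078, and 0 of the 11 passed the test (limma). Processed transcripts were negative in 13 of 22 (59.1%, against 49.4% of all 4868), and 1 of the 22 rose.

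Genes around the proteasome were taken from a list of 35 genes without a member symbol. Of these, 12 rose, 0 fell and 23 did not pass (limma). Over all genes 18.4% rose and 14.8% fell, and among the abundant genes described above 26.4% rose and 14.0% fell. The abundant genes are the closer comparison, because only Psmb8, Psmb9, Tap1 and Tap2 of the list lay under their level. Whether the list differs from them in its share of rises was not tested. With equal totals 6 genes of the list rose and 3 fell (Pomp, Maff and Vcp). At an unadjusted p below 0.05, 0 of the 35 had a negative log2 fold change, and DESeq2 and edgeR on recovered reads called 0 and 0 of the 35 lower. Nfe2l1, the transcription factor of proteasome genes that is anchored in the endoplasmic reticulum, had 64562, 62105, 59628 and 54133 normalized counts in the siL-DHX15-LEC libraries, against 43861, 48428, 44244 and 41329 in the wild-type LEC libraries. The groups did not overlap, with a log2 fold change of 0.43 ± 0.059 (SE) and an adjusted p of 3.0e-04 (limma). With the most abundant isoform in place of the sum, Nfe2l1 had a smaller rise of 0.22 (adjusted p = 0.024, limma). Its relative Nfe2l2, which controls antioxidant genes, had 16293, 16568, 16382 and 16319 in siL-DHX15-LEC, against 14255, 14150.0, 13225 and 13700.4 in wild-type LEC, and a log2 fold change of 0.25 ± 0.034 (SE) and an adjusted p of 3.6e-04 (limma). Of the proteins that process Nfe2l1, the deglycosylase Ngly1 rose (0.18, adjusted p = 0.028, limma) and the protease Ddi2 did not pass (0.090, adjusted p = 0.078). Of the small Maf partners, Mafg rose (0.15), and Maff and Mafk did not pass.

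Fbxo7, an F-box protein that binds the product of Psmf1, had 2623, 2735, 2616 and 2437 normalized counts in the siL-DHX15-LEC libraries, against 2144, 1946, 1994 and 2004 in the wild-type LEC libraries. No library overlapped, and the log2 fold change was 0.36 ± 0.049 (SE) (adjusted p = 2.9e-04, limma). Genes of ubiquitin supply that rose included Ubb (0.20), Rps27a (0.13) and the activating enzyme Uba1 (0.13), and Uba6 did not pass. Akirin2, which carries proteasomes into the nucleus, rose (0.21), as did the shuttle factors Rad23b (0.11) and Ubqln1 (0.13). With equal totals the calls of Ngly1, Mafg, Rps27a, Uba1, Rad23b and Ubqln1 were lost (log2 fold changes 0.047 to 0.11, adjusted p = 0.16 to 0.24). They were also lost without wild-type LEC replicate 3 and without at least 1 siL-DHX15-LEC library. The 3 genes of the p97 segregase did not pass, with a median of -0.0086.

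Promoters were searched for TGACNNNGC, the core of the sequence that either factor binds with a small Maf protein. RefSeq windows of 300 bases (250 before to 50 after the gene start, GRCm38.p6) were found for 38 of the 46 genes. On either strand 6 of the 38 held the motif (15.8%), against 14.0% of all 27025 genes with a window and 17.0% of the 10846 that were tested. These were Psmb5, Psmb6, Psmc6, Psmd9, Psmd12 and Psme4. Of the 8 genes with a window that rose, 0 held it, and of the 6 that held it 5 did not pass and 1, Psme4, fell. The 4 matches closest to the gene start are shown with the match in capitals, each in a stretch of 150 bases that ends 30 bases after the gene start, 5′ to 3′ on the strand of the gene.
Psmb5: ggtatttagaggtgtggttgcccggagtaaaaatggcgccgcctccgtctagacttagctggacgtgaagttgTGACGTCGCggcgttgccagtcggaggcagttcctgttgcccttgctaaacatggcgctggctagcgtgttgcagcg
Psmb6: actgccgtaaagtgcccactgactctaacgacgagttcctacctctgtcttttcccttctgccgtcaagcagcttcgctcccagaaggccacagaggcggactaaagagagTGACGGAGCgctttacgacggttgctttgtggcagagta
Psmd9: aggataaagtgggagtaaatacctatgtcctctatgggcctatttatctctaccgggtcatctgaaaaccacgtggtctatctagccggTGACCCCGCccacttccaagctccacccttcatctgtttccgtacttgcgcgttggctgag
Psme4: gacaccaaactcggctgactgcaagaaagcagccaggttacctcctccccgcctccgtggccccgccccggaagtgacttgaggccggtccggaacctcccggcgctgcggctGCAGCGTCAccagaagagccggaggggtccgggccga
These stretches lie at chr14:54617966-54618115 (minus strand), chr11:70525237-70525386, chr5:123228070-123228219 and chr11:30771655-30771804 (plus strand), in the order given. In Psme4 the match is on the opposite strand, so the capitals show its reverse complement. CCAAT, which NF-Y binds, was in 13 of the 38 windows (34.2%), against 41.1% of all genes and 42.9% of those that were tested. Of the 8 genes with a window that rose, 4 held CCAAT. Among the tested genes that held it, 0 fell and 8 did not pass. A match is only a description of the letters in this window.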

How the data were processed

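RNA-seq of 8 libraries was used, 4 from siL-DHX15-LEC and 4 from wild-type LEC. Per the submitters' processing notes and the methods of the study, the authors aligned poly-A reads to GRCm38 with STAR 2.5.2a, used RSEM 1.2.28 to quantify the isoforms of GENCODE M12 and divided by size factors of DESeq2 1.18. The results were deposited as normalized counts, a signal for each isoform. Within each library 100% of the lower values were multiples of a fixed step (to within 0.1 of it). High values, such as those of most main isoforms here, were not part of that check. Division of all values by that step and rounding gave the recovered reads for edgeR 4.0.16 and DESeq2 1.42.0. The deposited run list gave the lanes. Sums of isoforms gave genes. The test, limma 3.58.1 in R 4.3.3, took the 16497 genes and 50198 isoforms whose mean reached 10, as log2(normalized count + 1), a scale that understates changes of low values. It was two-sided, had a trend of the variance and used Benjamini-Hochberg adjustment at 0.05. For isoform usage diffSplice of limma was used, and for shares an exact permutation test. Fits were tested on simulated data, where the gene fit found 50% of 1.25-fold changes, with 9 of 156 calls false. The isoform fit found 10% of 1.25-fold and 36% of 2-fold changes, with 3 of 60 calls false. The usage test found 54% of 2-fold changes, and 20 of its 128 calls were false. Positions and sequences of isoforms are from GENCODE M21 on GRCm38, in which the 46 genes and 224 of the 227 isoforms were found. Psmg4-001 has another version there. Promoters are from RefSeq.

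The members and gene lists were chosen with earlier results of these data known. Values are printed per library, by rule, for the largest called rise and fall in each role, the catalytic beta subunits, members with a mean under 1000, Dhx15, up to 4 genes of the list of surrounding genes in each direction with the smallest p, and isoforms of members with changed usage. Other isoforms and Psmc6 were chosen with their values in view. Other settings tried were pseudocounts, filters, scalings, tools, gene sums and each library left out. The 95% intervals are from limma and rest on the spread between libraries, and the limit on reads of Psma8 covers counting error only. Some items that the rule or lists would name are not reported here. No sequences of miRNAs or proteins and no quality percentages of the sequencing were used.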

Additional observations from a re-analysis of the deposited data

How the results depend on the processing

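With libraries set to equal totals, 5 proteasome genes rose and 4 fell, and without a trend of the variance 6 rose and 1 fell, against 12 and 2 as reported. With each library left out in turn, 6 to 15 rose and 1 to 3 fell. Among isoforms of proteasome genes, where 10 rose and 1 fell as reported, 6 rose and 6 fell with equal totals, 5 rose and 0 fell without a trend, 16 rose and 5 fell with DESeq2, 0 rose and 0 fell at a threshold of 0.001, and 0 fell without a filter. With each library left out, 6 to 14 isoforms rose and 0 to 4 fell. Usage was called in 2 genes as reported, in 2 or 3 with each library left out and in 0 with diffSpliceDGE of edgeR. The cause of these changes was not tested, other than that a threshold of 0.001 is stricter by construction. The counts under the remaining settings stayed within 1.5 times those reported. None of the 14 proteasome genes, 11 isoforms and 12 surrounding genes that passed the test, and none of the shares tested by permutation for Psmd11 and Psmg4, turned direction under any setting run. Of the 30 proteasome genes that did not pass, 16 turned in at least 1 setting, 14 of them with equal totals. The exact test of the share of Psmg4-001 gave p = 0.057 without wild-type LEC replicate 1, 2 or 4, with no overlap of the shares in any of these. No paired analysis was possible because the labels give no replicate numbers. Those used here follow the order of the deposited values and match no library of 1 condition to a library of the other. Depth limits what can be said of Psma8 and Psmb11.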

Other observations

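Uba6, an enzyme that activates ubiquitin, had 4612, 3868, 4858 and 6350.1 normalized counts in the siL-DHX15-LEC libraries, against 4497, 6173, 5564 and 5587 in the wild-type LEC libraries. As for Psmc6 and Psme4, siL-DHX15-LEC replicate 4 was the highest library of its condition and wild-type LEC replicate 1 the lowest of its own, and the lowest siL-DHX15-LEC library was replicate 2. This likeness was chosen after the values were seen and was not tested. The log2 fold change of Uba6 was -0.16 ± 0.13 (SE) (95% interval -0.45 to 0.12) and did not pass, and without siL-DHX15-LEC replicate 4 it passed at -0.29 (adjusted p = 0.038).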
